A study of Mus musculus with 4 samples.

Results

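The enzymes that carry squalene to cholesterol were followed in liver RNA of WT and Tm7sf2-KO mice. The members were 9 genes, taken as every probe set whose gene name in the deposited annotation was Fdft1, Sqle, Lss, Cyp51, Msmo1, Nsdhl, Hsd17b7, Ebp or Sc5d. All 9 were found, at 18 of the 45037 probe sets tested and among 19504 named genes. Both groups were male C57Bl/6 mice of 6 weeks with no treatment named in the labels, and the KO had been backcrossed to C57/B6. How the allele was disrupted is not described in the sources used here, and no tissue restriction of the deletion is named. Each genotype had 2 Affymetrix MOE430 v2 arrays, which hold sets of short oligonucleotide probes against transcript regions. The labels speak of hybridization in duplicate without saying whether the duplicates were separate animals. The error behind every p-value comes from 2 arrays per genotype, pooled in part over all probe sets, and could be technical alone.

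Cholesterol is made from acetyl-CoA through the mevalonate pathway, and squalene is the first intermediate committed to sterols. Fdft1 (squalene synthase) joins farnesyl diphosphate units into squalene, Sqle (squalene epoxidase) oxidises it, and Lss (lanosterol synthase) closes the rings to lanosterol. Cyp51, a cytochrome P450, takes off the first methyl group, and the double bond it leaves is reduced by Tm7sf2 or by its relative Lbr, so Tm7sf2 acts directly after Cyp51. Msmo1, Nsdhl and Hsd17b7 then act in turn to remove the remaining methyl groups, and Ebp and Sc5d move and add double bonds before the last reductions, among them that by Dhcr7. In liver these enzymes sit in the endoplasmic reticulum, and their genes are textbook targets of the transcription factor SREBP-2, which works at promoters together with NF-Y and Sp1.

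As these genes are known targets of shared factors, the 250 bases before the annotated start were read for the 7 members matched in the RefSeq promoter table of build GRCm38.p6 (Lss, Cyp51, Msmo1, Nsdhl, Hsd17b7, Ebp and Sc5d). Fdft1 and Sqle were not matched. Letters were searched on both strands. CCAAT, the letters bound by NF-Y, was in 7 of 7 member windows against 33.8% of all 32851 windows, and GGGCGG, a GC box of the kind bound by Sp1, was in 7 of 7 against 32.7%. The member windows were GC-rich (median 65.6% against 52.4% over all windows), which bears on how often GC-rich letters occur. A sterol element spelled TCACNCCAC was in 0 of 7 against 1.05% of all windows. A related spelling, TCACCTCA, was looked for after the sequences were seen and lay in the windows of Cyp51 and Hsd17b7, 2 of 7, against 0.947% of all windows. These are matches of letters and no evidence of binding. The windows of Cyp51 and Hsd17b7 are shown for the TCACCTCA they share, and those of Msmo1 and Nsdhl for their repeated CCAAT, which is spelled in reverse complement where it lies on the other strand. Capitals mark CCAAT, the GC box and TCACCTCA on either strand, and each line runs 5′ to 3′ toward the gene's start.
Cyp51, chr5:4104698-4104947, minus strand: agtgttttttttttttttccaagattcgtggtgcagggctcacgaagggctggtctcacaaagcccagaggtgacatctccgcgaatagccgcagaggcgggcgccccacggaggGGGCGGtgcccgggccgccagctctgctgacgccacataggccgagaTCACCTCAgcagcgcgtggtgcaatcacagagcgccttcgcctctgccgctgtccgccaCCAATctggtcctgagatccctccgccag
Hsd17b7, chr1:169969206-169969455, minus strand: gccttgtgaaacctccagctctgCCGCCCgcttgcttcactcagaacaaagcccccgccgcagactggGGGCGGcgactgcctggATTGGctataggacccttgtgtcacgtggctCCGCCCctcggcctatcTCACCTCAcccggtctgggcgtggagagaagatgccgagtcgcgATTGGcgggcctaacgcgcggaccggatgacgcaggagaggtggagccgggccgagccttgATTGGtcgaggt
Msmo1, chr8:64733579-64733828, minus strand: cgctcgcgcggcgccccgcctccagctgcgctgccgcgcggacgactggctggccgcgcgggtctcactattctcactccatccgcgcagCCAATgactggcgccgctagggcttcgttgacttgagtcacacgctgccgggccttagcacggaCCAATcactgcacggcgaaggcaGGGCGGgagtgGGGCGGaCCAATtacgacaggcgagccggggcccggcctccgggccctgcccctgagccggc
Nsdhl, chrX:72918271-72918520, plus strand: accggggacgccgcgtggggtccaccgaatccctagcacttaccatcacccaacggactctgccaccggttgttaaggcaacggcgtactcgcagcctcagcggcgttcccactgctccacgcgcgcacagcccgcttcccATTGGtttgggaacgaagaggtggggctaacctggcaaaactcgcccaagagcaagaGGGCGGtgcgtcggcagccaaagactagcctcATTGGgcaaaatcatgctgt
In Cyp51 the TCACCTCA began 88 bases before the start, and its CCAAT and GC box began at 29 and 135 bases. In Hsd17b7 it began at 117 bases, among 3 CCAAT and 3 GC boxes. Msmo1 held 3 CCAAT, at 160, 96 and 55 bases before the start, and Nsdhl held 2, at 109 and 20 bases.

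The knockout itself was visible at 1 of the 2 Tm7sf2 probe sets, which read 10.25 and 10.27 in WT and 7.47 and 7.55 in KO (log2). The other Tm7sf2 probe set read 7.46 and 7.49 in WT and 7.50 and 7.54 in KO, and which transcript region either one reads is unknown here. The hepatocyte markers Alb, Ttr, Apoa1, Tat and Cps1 averaged 13.95 to 14.03 in the 4 arrays, on a scale that ended at 14.76. Of 37 probe sets for 27 markers of Kupffer, endothelial, stellate, biliary, lymphoid and erythroid cells, 0 passed 5% FDR (the false discovery rate of limma after Benjamini-Hochberg adjustment), against 1.25% of all probe sets. An unadjusted p under 0.05 was reached by 4, against 13.0% of all probe sets. These were both probe sets of the endothelial marker Lyve1 (-0.37 and -0.36, KO minus WT), the biliary marker Epcam (0.30) and the stellate marker Dcn (0.20), named after their values were seen. Probe sets for the control transcripts of the Affymetrix protocol averaged 0.39 higher in KO, both for the hybridization controls and for the poly-A controls. The excess of the 3′ over the 5′ control probe set of a gene, a common measure of RNA quality, differed between KO and WT by 0.18 at Actb, 0.12 at Gapdh, 0.33 at Pcx and -0.15 at Tfrc. The part of these differences in the results was not tested. In bulk liver RNA, fewer cells of a type and less RNA per cell cannot be told apart.

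Most of the 9 enzymes read slightly higher in Tm7sf2-KO liver and none did so past the thresholds. At the probe set with the highest mean of each gene, called the brightest here, 8 of 9 members were higher in KO and Sqle was lower, with differences (KO minus WT, log2) from -0.24 to 0.35 and a median of 0.22. Over all 18 probe sets 15 were higher and 3 lower, with a median of 0.15, whereas 52.4% of all probe sets were higher and their median was 0.01. In limma 0 of 18 passed 5% FDR, against 1.25% of all probe sets (0.684% higher in KO and 0.568% lower), and 0 passed 5% FDR with an absolute log2 difference of at least 0.5 (1.41-fold), against 0.706%. At an unadjusted p under 0.05 there were 10 of 18, against 13.0% of all probe sets. Of these, 8 were higher (7.08% of all) and 2 lower (5.96% of all). Such p-values are more frequent at high signal, where most members lie. Above a mean of 8 they were held by 2257 of 8037 probe sets, against 8 of 12 of the members. Above 10 they were held by 621 of 2016, against 4 of 6. When each array was centred on the added control transcripts, the median of all probe sets moved to -0.38 and that of the members to -0.24, and 0 of 18 member probe sets were above 0, so a direction given here is one against the other genes on the arrays and not against the control transcripts.

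**Figure D1:**
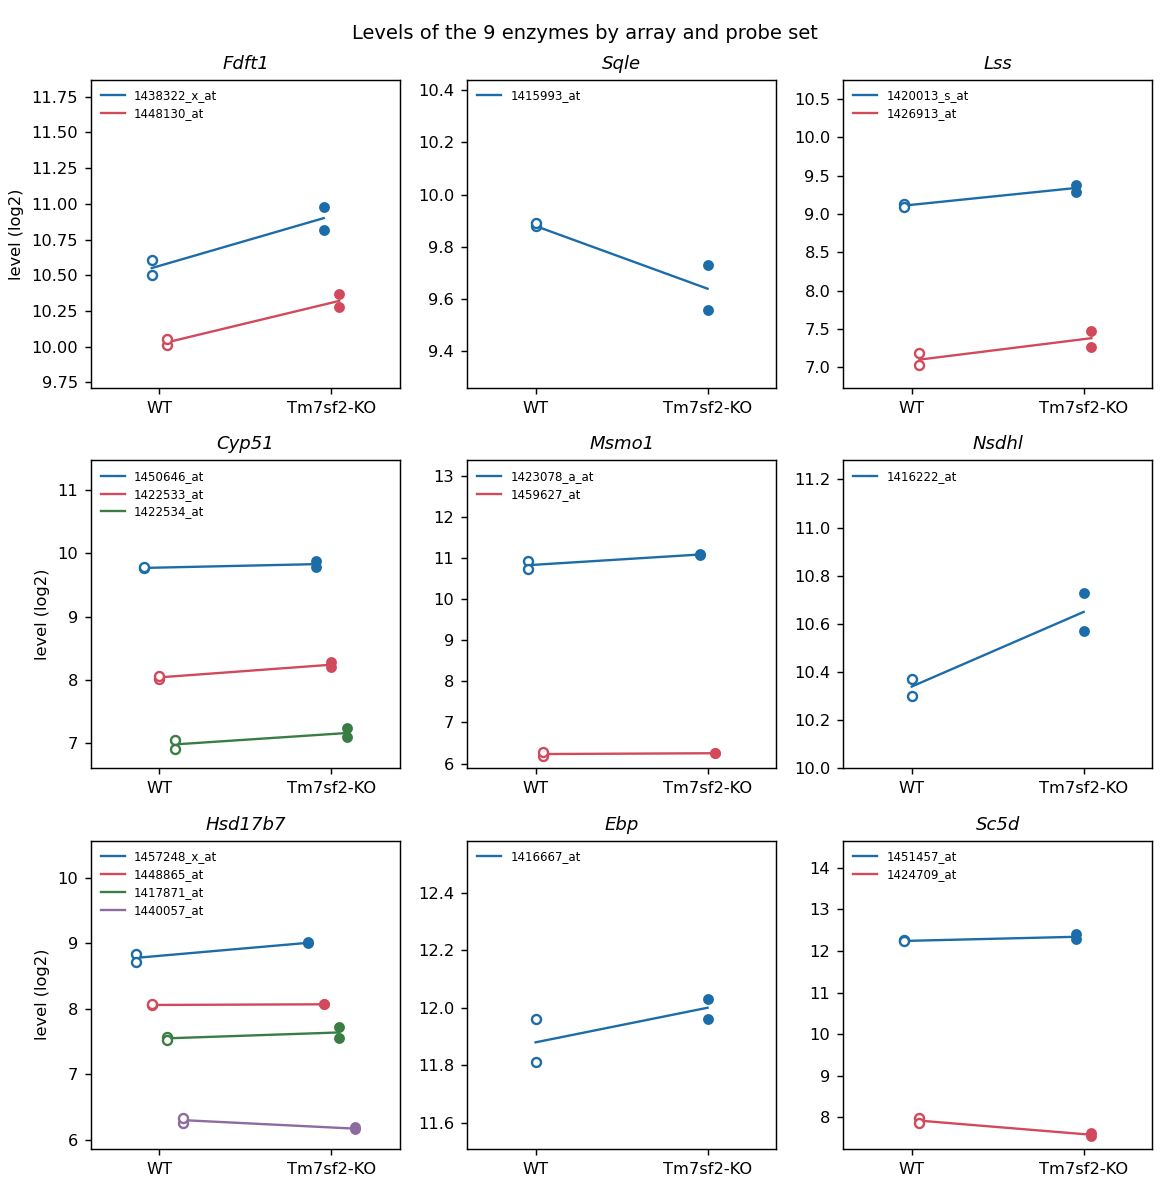
Log2 level of each probe set of the 9 enzymes (vertical axis, 1 panel per gene, scales differ) in WT (open circles) and Tm7sf2-KO (filled circles), 1 circle per array and a line between the means of 2 arrays. In these deposited values Fdft1, Lss and Nsdhl lie higher in both KO arrays at each of their probe sets, Sqle lies lower and the Sc5d probe sets run in opposite directions, whereas centring on control transcripts turns every member below 0.

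The arrays of the 2 genotypes separated at most member probe sets, by small steps. Both KO arrays lay above both WT arrays at 11 of 18 member probe sets, against 22.4% of all probe sets, and below both at 3, against 18.7%. At 12 of 18 the difference was larger than the gap between replicates in either genotype, which held for 30.6% of all probe sets. Both shares rise with level. Above a mean of 8 the difference exceeded both gaps at 47.3% of all probe sets and above 10 at 52.8%, against 66.7% of member probe sets at either level. Both KO arrays lay above both WT arrays at 2600 of 8037 probe sets above 8, against 9 of 12 of the members. The mean over the 9 brightest probe sets was 10.40 and 10.35 in the WT arrays and 10.54 and 10.53 in the KO arrays. Probe sets of high signal as a whole were close to balanced. Among all probe sets with a mean above 10 the median difference was 0.03 and 56.6% were higher in KO, while 6 of 6 member probe sets above that level were higher, with a median of 0.28.

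Fdft1, the enzyme that forms squalene, was higher in KO on the deposited scale at both of its probe sets. It read 10.50 and 10.61 in WT against 10.82 and 10.98 in KO at its brightest probe set, 1438322_x_at, whose suffix x_at marks probes that can also bind other transcripts. The KO arrays were both higher, by 0.35 (SE 0.09, 95% confidence interval 0.15 to 0.55, limma adjusted p = 0.118), a 1.27-fold ratio and above 98.6% of all probe sets. The second Fdft1 probe set, 1448130_at, read 10.01 and 10.05 in WT and 10.37 and 10.28 in KO, again with no overlap, for a difference of 0.29 (SE 0.08, 95% confidence interval 0.11 to 0.47, adjusted p = 0.146). The probe sets differed from each other by 0.06 in their KO minus WT difference (95% confidence interval -0.22 to 0.33). With a variance trend in limma the first probe set passed 5% FDR (adjusted p = 0.0476), and it was the only member probe set to do so outside the centring on control transcripts.

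Sqle, the next enzyme and a rate-limiting one after squalene, went the other way. It was read by 1 probe set, with 9.88 and 9.89 in WT and 9.56 and 9.73 in KO. Both KO arrays were lower, with a difference of -0.24 (SE 0.09, 95% confidence interval -0.43 to -0.05, adjusted p = 0.268), although the KO arrays differed from each other by 0.16 and the WT arrays by 0.01. Without Tm7sf2-KO replicate 1 the difference was -0.16, and without Tm7sf2-KO replicate 2 it was -0.32. The confidence interval of Sqle did not overlap those of either Fdft1 probe set, and the difference between these genes was not tested. Lss, which acts on the product of Sqle, read 9.13 and 9.09 in WT and 9.29 and 9.38 in KO at 1420013_s_at, and 7.03 and 7.18 in WT and 7.27 and 7.48 in KO at 1426913_at. Neither overlapped, with differences of 0.22 (SE 0.08, adjusted p = 0.264) and 0.27 (SE 0.10, adjusted p = 0.261). The second was 0.38 without Tm7sf2-KO replicate 1 but 0.17 without Tm7sf2-KO replicate 2.

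Cyp51, the step before Tm7sf2, was read by 3 probe sets that were all higher in KO by little. The brightest, 1450646_at, read 9.77 and 9.78 in WT and 9.88 and 9.78 in KO, a difference of 0.06 (SE 0.08, 95% confidence interval -0.12 to 0.24, adjusted p = 0.837). Here 1 KO array stood level with WT. The probe set 1422533_at read 8.01 and 8.06 in WT and 8.29 and 8.20 in KO, a difference of 0.21 (SE 0.08, 95% confidence interval 0.03 to 0.39, adjusted p = 0.305). The third, 1422534_at, read 7.05 and 6.90 in WT and 7.09 and 7.24 in KO (0.19, SE 0.09, 95% confidence interval -0.02 to 0.39, adjusted p = 0.439). With centring on control transcripts the 3 probe sets gave -0.33, -0.18 and -0.20 in the same order. The third gave 0.11 without WT replicate 2 or without Tm7sf2-KO replicate 2, and the brightest gave 0.00 without Tm7sf2-KO replicate 1. By quantitative PCR the paper reported reduced Cyp51 and Msmo1 transcripts in KO liver, relative to Hprt and in more mice than the arrays here. The deposited array values of these genes ran in the opposite direction. They rest on 2 arrays per genotype, and no probe set of either gene passed the FDR threshold on that scale. With centring on control transcripts Msmo1 gave -0.12 at 1423078_a_at and -0.36 at 1459627_at, so both genes then read lower in KO, as by quantitative PCR. The difference between these assays was not tested.

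**Figure D2:**
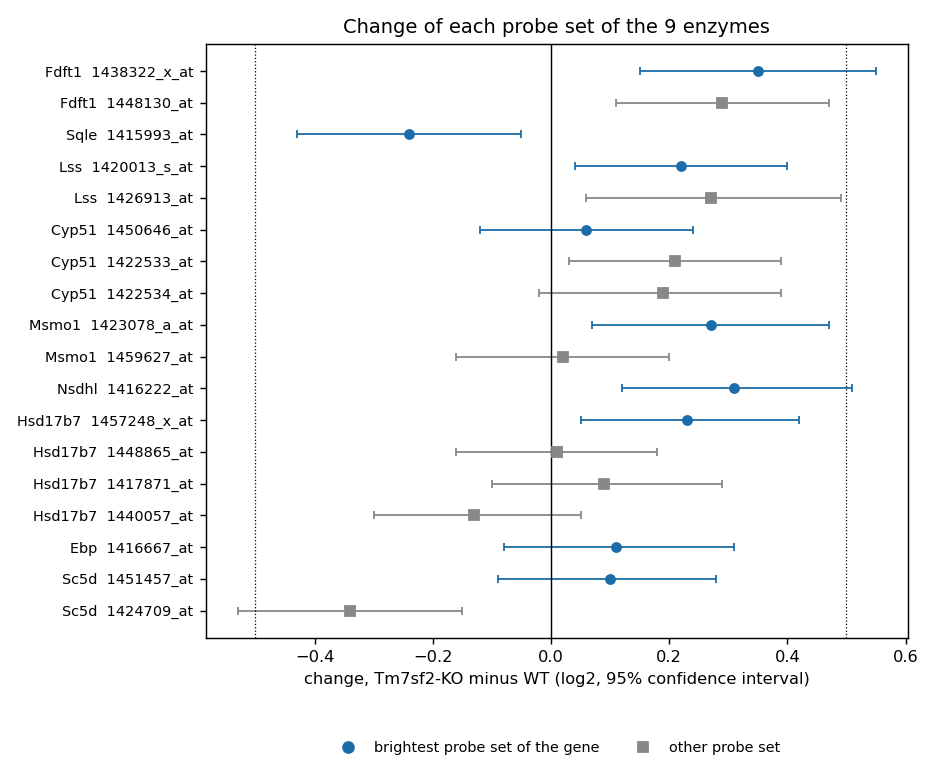
Difference of each of the 18 probe sets (horizontal axis, Tm7sf2-KO minus WT, log2) with its 95% confidence interval from limma, in pathway order. Blue circles are the brightest probe set of each gene, grey squares the others, and dotted lines mark 0.5 in either direction. No point reaches a dotted line, and the values run from -0.34 at Sc5d to 0.35 at Fdft1, or from -0.72 to -0.04 with centring on control transcripts.

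The enzymes that remove the methyl groups after Tm7sf2 read higher in KO at their brightest probe sets. Msmo1, the methylsterol oxidase, read 10.92 and 10.72 in WT and 11.10 and 11.07 in KO at 1423078_a_at, a difference of 0.27 (SE 0.09, 95% confidence interval 0.07 to 0.47, adjusted p = 0.238). The WT arrays differed by 0.20, and the difference between genotypes was 0.37 without WT replicate 1 and 0.17 without WT replicate 2. Its other probe set, 1459627_at, lay below the median of all probe sets, with 6.18 and 6.28 in WT and 6.25 and 6.25 in KO (0.02, adjusted p = 0.945). Nsdhl, a dehydrogenase that takes off the oxidised carbon and 1 of the 2 members on the X chromosome, read 10.37 and 10.30 in WT and 10.73 and 10.57 in KO. Neither KO array reached down to WT, and the difference of 0.31 (SE 0.09, 95% confidence interval 0.12 to 0.51, adjusted p = 0.153) lay above 98.0% of all probe sets.

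Hsd17b7, the ketosteroid reductase of the same cycle, had 4 probe sets that did not run together. At the brightest, 1457248_x_at, it read 8.84 and 8.72 in WT and 9.01 and 9.02 in KO (0.23, SE 0.08, 95% confidence interval 0.05 to 0.42, adjusted p = 0.256), with no overlap. The next, 1448865_at, overlapped between genotypes, with 8.06 and 8.07 in WT and 8.07 and 8.08 in KO (0.01, 95% confidence interval -0.16 to 0.18). The probe set 1417871_at gave 0.09 (95% confidence interval -0.10 to 0.29), or 0.01 without Tm7sf2-KO replicate 1 but 0.18 without Tm7sf2-KO replicate 2, and the dim 1440057_at gave -0.13 (95% confidence interval -0.30 to 0.05), with 6.25 and 6.34 in WT and 6.19 and 6.16 in KO. Of the 4, the brightest is the one with the x_at suffix.

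The double bond enzymes differed little between genotypes at their brightest probe sets. Ebp, the sterol isomerase, also on the X chromosome, read 11.96 and 11.81 in WT and 12.03 and 11.96 in KO (0.11, SE 0.09, 95% confidence interval -0.08 to 0.31, adjusted p = 0.641). The lower KO array lay above the higher WT array only beyond the second decimal, and the difference was 0.19 without WT replicate 1 and 0.04 without WT replicate 2. Sc5d, the sterol desaturase, read 12.26 and 12.23 in WT and 12.40 and 12.28 in KO at 1451457_at (0.10, SE 0.08, 95% confidence interval -0.09 to 0.28, adjusted p = 0.693), or 0.04 without Tm7sf2-KO replicate 1 but 0.16 without Tm7sf2-KO replicate 2. At 1424709_at it read 7.98 and 7.86 in WT and 7.54 and 7.62 in KO, the lowest difference of any member (-0.34, SE 0.08, 95% confidence interval -0.53 to -0.15, adjusted p = 0.105) and below all but 1.31% of all probe sets.

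Each gene's brightest probe set was compared with its others in a limma fit over 13914 such pairs, added after the values were seen. Of the 9 member pairs 0 passed 5% FDR, against 0.381% of all pairs. An unadjusted p under 0.05 was reached by 2. The share of all pairs at that p was not counted, so the 2 cannot be read as unusual. The Sc5d probe sets differed most, by 0.44 (SE 0.13, 95% confidence interval 0.17 to 0.71, limma adjusted p = 0.177). For Hsd17b7 the brightest probe set lay 0.36 above the dimmest in its difference (95% confidence interval 0.09 to 0.63, adjusted p = 0.274). No probe positions were used, so the transcript regions behind these probe sets are not described.

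The mevalonate pathway before squalene held genes past 5% FDR and the 9 enzymes held none, although the difference between these lists was not tested. Of 8 found of the pathway's 9 listed genes (18 probe sets), 4 probe sets of 4 genes passed 5% FDR in limma, all higher in KO (0.684% of all probe sets), none reached both thresholds, and the median was 0.19. Of these 18 probe sets, 8 had an unadjusted p under 0.05 (13.0% of all) and 16 were higher in KO (52.4% of all). The 18 member probe sets gave 10 and 15. At the brightest probe sets the median was 0.15, against 0.22 for the members. The thiolase Acat2 rose from 10.07 and 10.10 in WT to 10.55 and 10.61 in KO (0.49, SE 0.08, adjusted p = 0.0205). Pmvk, the phosphomevalonate kinase, rose by 0.47 (adjusted p = 0.0358) and Hmgcs1, the HMG-CoA synthase, by 0.41 at its brightest probe set (adjusted p = 0.041), while its 3 others gave 0.22 to 0.36. Ggps1, a branch enzyme for geranylgeranyl diphosphate, was called at 1 of 4 probe sets only (0.43, adjusted p = 0.0336, against -0.06 to 0.09 at the others). The 0.35 of Fdft1 lay within the confidence intervals of Acat2 (0.31 to 0.67) and Pmvk (0.28 to 0.66). With centring on control transcripts 0 of the 4 passed, at 0.10 for Acat2, 0.08 for Pmvk, 0.05 for Ggps1 and 0.03 for Hmgcs1, and the median of the list was -0.19. Leaving out any 1 of the 4 arrays left 0 probe sets past 5% FDR in limma on the whole array, Tm7sf2 and these genes included, with 3326 to 4217 at an unadjusted p under 0.05.

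**Figure D3:**
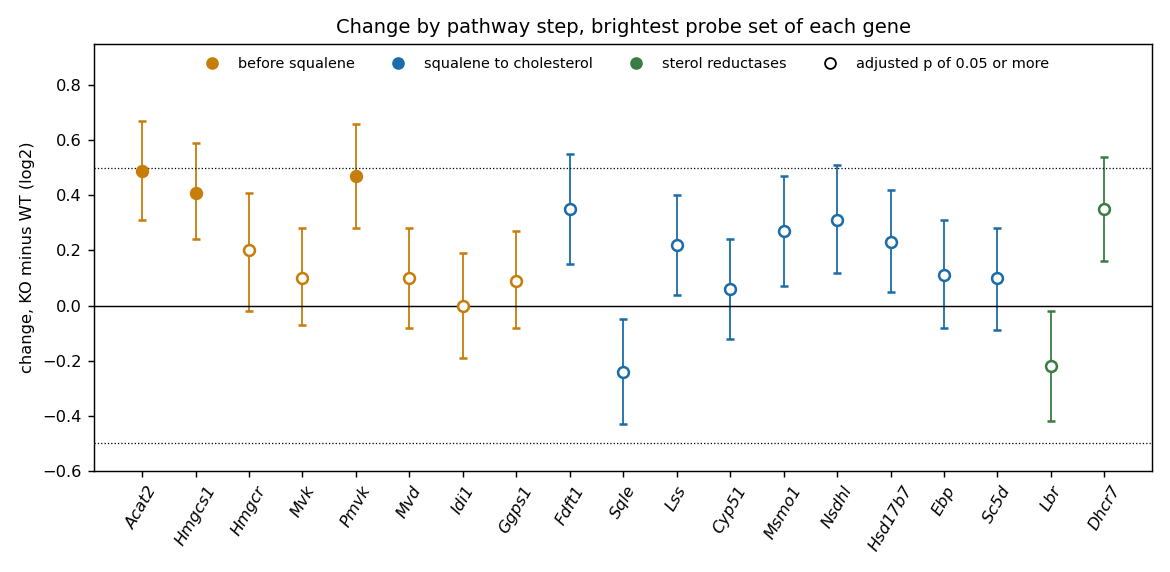
Difference in level (vertical axis, Tm7sf2-KO minus WT, log2, with 95% confidence interval) at the brightest probe set of each gene in pathway order. Orange marks genes before squalene, blue the 9 members and green the sterol reductases Lbr and Dhcr7, with Tm7sf2 (-2.75) off the scale. Filled circles passed 5% FDR and are Acat2, Hmgcs1 and Pmvk; dotted lines mark 0.5, and Sqle and Lbr are the genes whose whole interval lies below 0 in these deposited values, before any centring on control transcripts.

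The remaining lists of sterol genes differed in how many calls they held. Among the 3 sterol reductases described here (Tm7sf2, Lbr and Dhcr7) only Tm7sf2 passed (-2.75, adjusted p = 1.65e-06), and its relative Lbr gave -0.22 (adjusted p = 0.335) and Dhcr7 0.35 (adjusted p = 0.0965, 0.043 with the variance trend), these 2 being named after their values were seen. Of 12 genes found of SREBP control and cholesterol uptake (22 probe sets) 0 passed 5% FDR in limma, against 1.25% of all probe sets. An unadjusted p under 0.05 was reached by 4 probe sets, against 13.0% of all. The 2 nearest were Insig1 (0.36, adjusted p = 0.213) and Insig2 (0.25, adjusted p = 0.246), which hold the SREBP precursor in the endoplasmic reticulum. Insig1 gave 0.18 without WT replicate 1 and 0.54 without WT replicate 2. Of 18 genes found of cholesterol handling (29 probe sets), 4 probe sets were lower past 5% FDR in limma and 1 was higher. Over all probe sets these shares were 0.568% and 0.684%. All of these calls also passed both thresholds, against 0.706% of all probe sets. An unadjusted p under 0.05 was reached by 12, against 13.0% of all. Cyp7b1, an oxysterol hydroxylase, fell by 0.96 (adjusted p = 0.000506) and 0.88 (adjusted p = 0.0028). The efflux pump Abca1 fell by 0.68 (adjusted p = 0.00482) and 0.59 (adjusted p = 0.0239) at 2 of 3 probe sets. Its brightest probe set gave -0.33 (adjusted p = 0.0908). Cyp7a1, which opens bile acid synthesis, rose by 0.50 (adjusted p = 0.02) at 1 of 2, a call lost with centring on control transcripts (0.12, adjusted p = 0.23). The other genes of these lists did not pass.

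The intervals rest on 2 arrays per genotype and on a variance shared over all probe sets (2 residual and 7.3 prior degrees of freedom). They therefore do not measure the spread of a probe set's own arrays alone. On the deposited scale, over the 18 probe sets, they ran from -0.53 at Sc5d to 0.55 at Fdft1, and the highest upper bound was a 1.46-fold ratio of KO over WT. Centring on control transcripts put Sc5d at -0.72 and Sqle at -0.62, outside that range. The median SE of a difference was 0.08. An exact permutation test of 2 arrays against 2 cannot give a two-sided p under 0.333 and was not used.

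**Figure D4:**
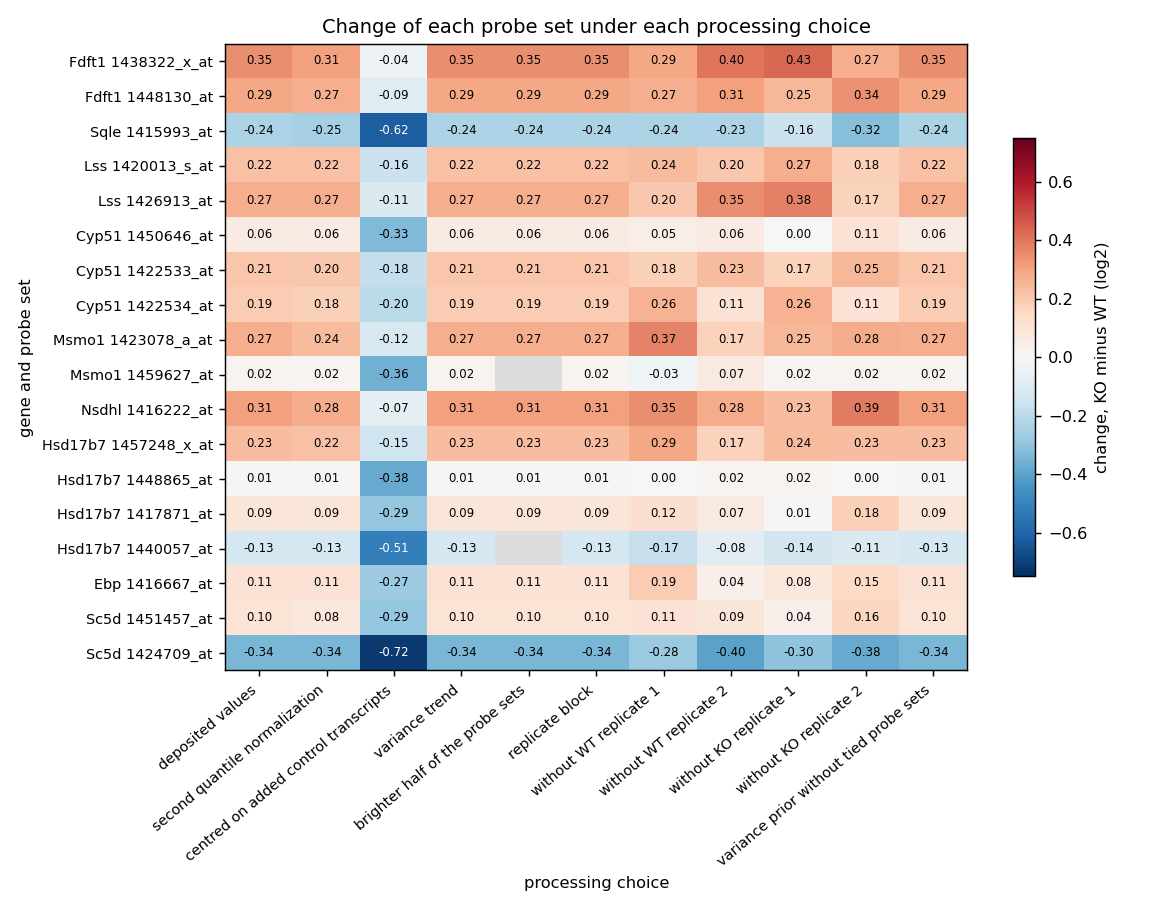
Difference of each of the 18 probe sets (rows, Tm7sf2-KO minus WT, log2, printed in each cell and coloured on the scale at right) under each processing choice (columns). Grey cells are probe sets left out by the brightness filter. Centring on added control transcripts turns every row negative, from -0.72 at Sc5d to -0.04 at Fdft1, and under the other choices the sign changes only at the dim Msmo1 probe set without WT replicate 1 (-0.03). The variance trend, brightness filter, replicate block and variance prior leave each difference unchanged by construction.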

How the data were processed

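Liver RNA of 2 WT and 2 Tm7sf2-KO mouse samples was hybridized to Affymetrix MOE430 v2 arrays. The authors deposited a log2 expression value for every probe set on every array, after quantile normalization according to the study's methods. The tools in the submitters' processing notes are affy and limma (versions absent), and the steps of background correction and probe summarisation are not named in the sources used here. Gene names came from the deposited annotation table. That table also holds the authors' own log2 ratio and adjusted p-value deposited per probe set, which were not used.

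The 64 control probe sets were left out and 45037 were fitted in R 4.3.3 by limma 3.58.1 (4 arrays, lmFit then eBayes, no covariate, 2 residual and 7.3 prior degrees of freedom, two-sided), and p-values were adjusted by Benjamini-Hochberg over all of them. The thresholds were 5% FDR and an absolute log2 difference of 0.5. The number of arrays limits the precision. Array medians were 6.66 to 6.67, and correlations across probe sets were 0.994 within and 0.990 to 0.991 between genotypes. The fit was tested on simulated data. Alternatives changed the normalization, variance model, brightness filter (mean above 6.66), replicate block and arrays used.

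The members and gene lists were chosen with earlier results of these data known. Genes outside the members were named by a rule: up to 4 per list past 5% FDR, or the 2 with the smallest adjusted p. A gene of the lists is not reported here.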

Additional observations from a re-analysis of the deposited data

Results flagged for a closer look

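Probe sets left out of every comparison stood higher in KO than in WT. The 18 probe sets of control transcripts added at hybridization averaged 9.97 and 10.05 in WT against 10.40 and 10.39 in KO, a difference of 0.39. The 24 probe sets of poly-A control transcripts averaged 7.75 and 7.79 against 8.17 and 8.14, also a difference of 0.39. The 5′ probe set for 18S rRNA read 7.96 and 7.93 in WT and 9.18 and 9.11 in KO, a difference of 1.20, while the other 18S probe sets differed by 0.40 and 0.39. These differences exceed that of any member of the squalene to cholesterol enzymes (0.35 at most).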

How the results depend on the processing

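The second quantile normalization turned no member's direction. The variance trend, the brightness filter, the replicate block and the variance prior without tied probe sets could not turn one. They change the error or the probe sets kept and leave each difference as it was. Counts over members were 0 at both thresholds in each of these settings. At 5% FDR they were 0 except with the variance trend, where 1 probe set and 1 gene (Fdft1) passed. Over all probe sets, 5% FDR was passed by 346 with the replicate block and by 876 with the variance prior without tied probe sets, against 564. Same-numbered arrays share no stated origin, and their deviations correlated at -0.0368, so the numbers were not taken to pair them. The block changed no call among the members, and Ggps1 (adjusted p = 0.0625) and Hmgcs1 (adjusted p = 0.0733) did not pass under it. Leaving out 1 array gave 0 to 0 probe sets past 5% FDR and 0 to 0 past both thresholds over all probe sets (3326 to 4217 had an unadjusted p under 0.05), so those fits say nothing of stability, and the dim Msmo1 probe set ranged from -0.03 without WT replicate 1 to 0.07 without WT replicate 2. Centring on the added control transcripts called 41250 probe sets at 5% FDR and 7181 past both thresholds. Among members it called 9 probe sets at 5% FDR and 3 past both thresholds, 4 genes at their brightest probe set, 0 above 0 and a median of -0.24. Its values at the probe sets that had been higher were -0.04 and -0.09 for Fdft1, -0.16 and -0.11 for Lss, -0.33, -0.18 and -0.20 for Cyp51, -0.12 and -0.36 for Msmo1, -0.07 for Nsdhl, -0.15, -0.38 and -0.29 for Hsd17b7, -0.27 for Ebp and -0.29 for Sc5d. The probe sets already lower gave -0.62 for Sqle, -0.51 for Hsd17b7 at 1440057_at and -0.72 for Sc5d at 1424709_at. Outside the members Insig1 gave -0.03, Insig2 -0.14 and Dhcr7 -0.03. This follows from subtracting a control level that was 0.39 higher in KO. The sterol element was in 0 of 7 windows in a longer spelling and in 2 as TCACCTCA. Only 2 arrays per genotype limit each statement.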

Other observations

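When the probe sets of each gene were averaged instead of taking the brightest, 0 of 9 members passed 5% FDR in limma, against 425 of 19504 genes. An unadjusted p under 0.05 was reached by 6 members. The share of all genes at that p was not counted, so the 6 cannot be read as unusual. Fdft1 came nearest, at 0.32 (95% confidence interval 0.17 to 0.47, adjusted p = 0.0532), and Nsdhl followed at 0.31 (95% confidence interval 0.14 to 0.49, adjusted p = 0.0944). Cyp51 stood at 0.15 (95% confidence interval 0.01 to 0.29, adjusted p = 0.299). Sc5d stood below 0 on this scale, at -0.12 (95% confidence interval -0.27 to 0.03, adjusted p = 0.434), against 0.10 at its brightest probe set, so its sign depends on which probe sets are read.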
